A study of Mus musculus with 4 samples.

Results

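Cycling cells of the neonatal mouse intestinal crypt were picked out of a single-cell RNA sequencing data set of the jejunum and ileum by 7 transcripts of dividing cells: Mki67, Top2a, Ube2c, Cenpf, Cdk1, Ccnb1 and Birc5. Cells were thus selected on measured transcripts. A cell counted as cycling when it held at least 3 of these 7 transcripts and at least 5 of their unique molecular identifiers (UMIs, 1 per captured RNA molecule). The rule found 1200 cycling cells among 30538 kept cells, which are those with 1000 to 6000 detected genes and under 20% mitochondrial UMIs, out of 36202 called cells. Jejunum and ileum were both taken from each of 2 wild-type mice at postnatal day 6, and epithelial cells were released and profiled from the 3′ end of their transcripts. The libraries are named here ileum 1, ileum 2, jejunum 1 and jejunum 2 after region and mouse, and they held 320, 264, 293 and 323 cycling cells. The mice were handled in separate batches, so mouse and batch cannot be told apart, and no genetic change or treatment was applied to either. The sex labels went against the data: Xist, transcribed in female cells, reached 575 CPM in ileum 1 and 466 CPM in jejunum 1, whose labels say male, but 0.705 CPM in ileum 2 and 0.906 CPM in jejunum 2, whose labels say female, and the Y-linked Eif2s3y showed the reverse. Sex entered no comparison below. CPM means UMIs of a gene per 1000000 UMIs, after the cells of a class were summed within a library.

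Dividing cells of the intestinal epithelium sit in the crypts, or, in the days after birth before crypts are deep, in the intervillus zones. Lgr5-positive stem cells and their transit-amplifying daughters replicate DNA in S phase, assemble a spindle and divide, and their descendants leave the cycle and move up the villus as enterocytes and secretory cells. In the suckling rodent the villus enterocytes of the distal small intestine take up luminal protein by endocytosis and degrade it in large lysosomes, while the proximal enterocytes mainly absorb lipid and sugar. Genes that act late in the cell cycle are commonly repressed in resting cells through a promoter element called the cell cycle genes homology region (CHR), which lies near the transcription start, often beside CCAAT boxes. E2F factors act on genes of DNA replication.

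The 200 bases upstream of the transcription start were read for all 7 markers from the RefSeq promoter table of build GRCm38.p6, which held 1 entry for each. These sequences are shown for 5 markers because they carry the features on which the markers differ: chr11:99024190-99024389 on the minus strand for Top2a, chr7:135716380-135716579 on the minus strand for Mki67, chr2:164769729-164769928 on the plus strand for Ube2c, chr10:69352913-69353112 on the minus strand for Cdk1 and chr11:117849037-117849236 on the plus strand for Birc5. Each is written 5′ to 3′ on the strand of its gene and ends at the base before the start. Capitals mark matches on either strand to the CHR letters (TTTGAA or TTCGAA), to CCAAT and to an E2F-type word (TTTCCCGC, TTTGGCGC, TTTCGCGC or TTTGCCGC), and neighbouring matches may share letters.
Top2a: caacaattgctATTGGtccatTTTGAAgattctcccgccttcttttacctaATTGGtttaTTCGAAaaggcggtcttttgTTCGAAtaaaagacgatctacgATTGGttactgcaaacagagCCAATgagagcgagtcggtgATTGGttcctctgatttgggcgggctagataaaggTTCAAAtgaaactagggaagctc
Mki67: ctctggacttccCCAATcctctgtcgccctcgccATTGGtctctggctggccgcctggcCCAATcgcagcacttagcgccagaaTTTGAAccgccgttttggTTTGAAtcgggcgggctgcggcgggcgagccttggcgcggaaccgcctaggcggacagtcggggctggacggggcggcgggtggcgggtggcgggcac
Ube2c: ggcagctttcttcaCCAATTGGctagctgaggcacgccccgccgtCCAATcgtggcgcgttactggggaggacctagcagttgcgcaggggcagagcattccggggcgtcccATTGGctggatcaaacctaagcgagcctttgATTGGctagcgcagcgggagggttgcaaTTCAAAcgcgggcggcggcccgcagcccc
Cdk1: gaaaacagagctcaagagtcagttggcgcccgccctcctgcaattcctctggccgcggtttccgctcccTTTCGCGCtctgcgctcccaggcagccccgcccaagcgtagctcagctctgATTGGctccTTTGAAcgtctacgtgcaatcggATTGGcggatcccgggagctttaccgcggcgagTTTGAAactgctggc
Birc5: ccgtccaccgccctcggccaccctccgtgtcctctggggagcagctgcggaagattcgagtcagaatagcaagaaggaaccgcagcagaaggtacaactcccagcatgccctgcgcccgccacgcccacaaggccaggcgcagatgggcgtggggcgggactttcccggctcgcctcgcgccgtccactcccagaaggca

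CHR letters were found in 4 of the 7 upstream stretches. Top2a held 4 matches, Mki67 and Cdk1 held 2 each and Ube2c held 1, at 29 bases before the start. Cenpf, Ccnb1 and Birc5 held none in this window. CCAAT was found in 6 of the 7, all but Birc5, and Cdk1 alone of the 7 held an E2F-type word, at 131 bases before the start. Over the 27025 gene symbols of the promoter table, 13.6% held CHR letters in the same window, 30.0% held CCAAT and 1.63% held an E2F-type word. Among the lists of cell cycle genes, CHR letters stood in 44.0% of the 25 condensin, cohesin and chromatin genes with an entry, in 31.3% of the 32 spindle and cytokinesis genes and in 24.1% of the 29 centromere, kinetochore and checkpoint genes, and in 14.3% of the 35 DNA replication genes. E2F-type words went the other way, with 25.7% of the DNA replication genes and 9.38% of the spindle genes. Not every list followed this contrast. Of 18 replication-dependent histone genes 44.4% held CHR letters and 0% an E2F-type word. Of 12 cell cycle transcription factor genes 33.3% held CHR letters and 41.7% an E2F-type word. CHR letters stood in 5.56% of 18 nucleotide synthesis genes and 0% of 15 repair genes. Among genes at 10 CPM or more in cycling cells the share was 9.34%. These are matches of letters, and no binding was measured.

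Each of the 7 markers was found in most cycling cells. The rule chose the cells by these transcripts, so their levels are a description with no test. A cycling cell carried a median of 12 marker UMIs and at most 79. Of the 1200 cells, 275 held all 7 markers, 252 held 6 and 188 held 3, the fewest allowed. At the edge of the rule, 108 cycling cells had just 5 marker UMIs, while 107 cells with at least 3 markers stayed out with 4 UMIs and 52 stayed out with 5 or more UMIs from 2 markers. No marker UMI was seen in 76.4% of kept cells.

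Top2a, the topoisomerase that untangles replicated DNA, was detected in 88.8% of cycling cells and stood at 491, 421, 559.9 and 394 CPM in ileum 1, ileum 2, jejunum 1 and jejunum 2. Mki67, which coats mitotic chromosomes, was detected in 87.9% and stood at 397, 375, 435 and 350.1 CPM. Ube2c, the ubiquitin-conjugating enzyme of the anaphase-promoting complex, was detected in 82.7% and stood at 352, 368, 392 and 443 CPM. For Top2a and Mki67 the highest library was jejunum 1 and the lowest jejunum 2, so the regions overlapped. Cenpf, a kinetochore protein, was detected in 66.3% and stood at 258, 215, 208 and 149 CPM. Cdk1, the kinase that drives entry into mitosis, was detected in 58.3% and stood at 143, 137, 153 and 168 CPM. Its partner cyclin Ccnb1 was detected in 56.0% and stood at 151, 166, 154 and 178 CPM. Birc5, the survivin gene of the chromosomal passenger complex, was detected in 76.0% and stood at 282, 332, 308 and 293 CPM. Among other kept cells, the share with at least 1 UMI ran from 1.32% for Cenpf to 6.30% for Ube2c. No barcode was shared between any pair of libraries.

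Cycling cells made up 4.38% of kept cells in ileum 1 (exact 95% binomial interval 3.92 to 4.87), 3.10% in ileum 2 (2.75 to 3.50), 3.26% in jejunum 1 (2.90 to 3.64) and 5.64% in jejunum 2 (5.06 to 6.27). These intervals cover counting error only. The ileum held the larger share in mouse 1 and the jejunum in mouse 2. The mean was 3.74% ± 0.901 (SD, n = 2) in the ileum and 4.45% ± 1.69 (SD, n = 2) in the jejunum, a difference of -0.708 percentage points that was smaller than the spread between mice (exact two-sided permutation test over the 4 libraries, p = 0.667, where 0.333 is the smallest p this design allows). Depth differed between classes and regions. Cycling cells had a median of 6460, 6649, 6590 and 7960 UMIs in ileum 1, ileum 2, jejunum 1 and jejunum 2, and other kept cells 12602, 11156, 4637 and 5786. When every cell was thinned to 2000 UMIs, which left out 54, 335, 767 and 255 shallower kept cells, the shares became 2.01%, 1.25%, 1.52% and 2.47%. The libraries kept their order at that depth, and the difference between regions was -0.363 percentage points (exact permutation p = 0.667). At 4000 UMIs, where 1461, 1816, 3888 and 1795 cells were left out, the shares were 3.21%, 2.20%, 3.31% and 4.76%, and mouse 1 no longer had the larger share in the ileum.

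**Figure D1:**
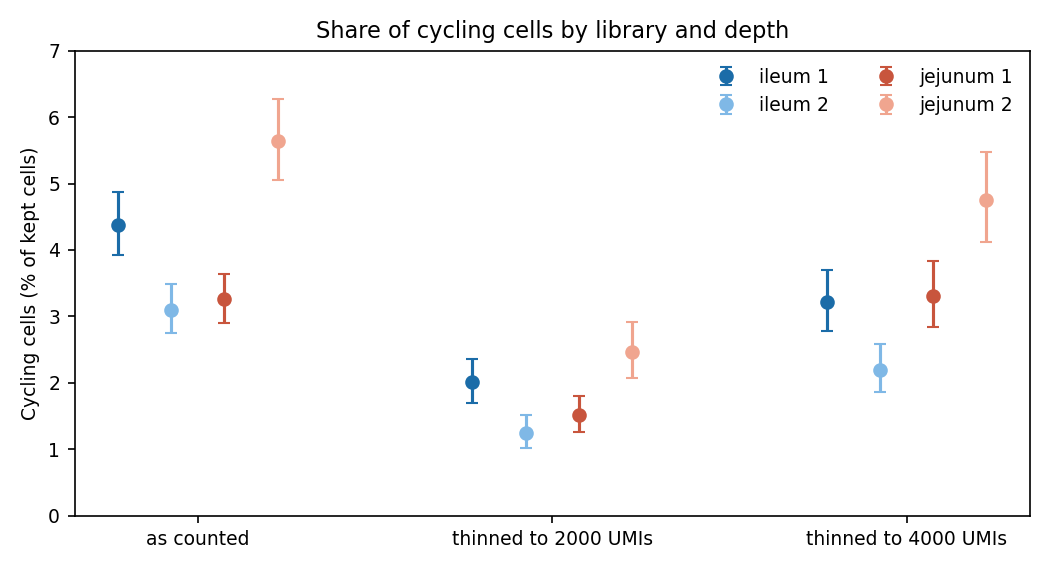
Share of cycling cells, as percent of kept cells, in each of the 4 libraries, as counted and after thinning each cell to 2000 or 4000 UMIs. Points are shares and bars are exact 95% binomial intervals. At each depth jejunum 2 is highest, at 5.64% as counted, and ileum 2 is lowest, at 3.10%.

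Cycling cells were epithelial. At least 1 of 12 epithelial genes such as Epcam and Cdh1 was detected in 1199 of 1200 cells, and Epcam stood at 1679.9, 1664, 1807 and 1713 CPM in ileum 1, ileum 2, jejunum 1 and jejunum 2. Markers of other tissues were scarce. Of the 1200 cells, 13 (1.08%) held at least 2 immune markers, against 0.256% of other kept cells. This share was higher in cycling than in other kept cells of each library. Of the cycling cells, 0 held 2 or more mesenchymal or muscle markers and 0 held 2 or more red blood cell markers. Among other kept cells these shares were 0.0954% and 0.0102%. A count of 0 allows a share of up to 0.250% of cells with 2 or more such markers. At least 1 mesenchymal or muscle marker was found in 47 cells and at least 1 red blood cell marker in 10. Endothelial markers were rare in both classes, with at least 2 in 3.58% of cycling cells and in 2.58% of other kept cells. The lymphocyte granzyme gene Gzma stood at 21.7, 0, 0.443 and 85.5 CPM and came from 0.333% of cycling cells.

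The crypt label was checked on genes that the rule did not use. A rule on 6 crypt genes (at least 2 of Lgr5, Ascl2, Olfm4, Smoc2, Axin2 and Slc12a2, with at least 3 UMIs) was met by 904 of 1200 cycling cells, or 75.3%, against 3.44% of other kept cells. Olfm4, a glycoprotein of crypt base stem cells, was detected in 77.2% of cycling cells and 8.66% of other kept cells. Lgr5, which marks the stem cells, was detected in 49.4% and 2.59%. Ascl2, the transcription factor that sustains them, was detected in 27.7% and 0.372%. Thinned to 2000 UMIs, Lgr5 was still detected in 30.6%, 22.3%, 24.6% and 20.6% of cycling cells of ileum 1, ileum 2, jejunum 1 and jejunum 2. In all, 18 of the 23 intestinal stem cell markers with enough signal were raised in cycling cells and 0 were lowered, where raised means a log2 ratio of CPM (5 CPM added) above 1 in each of the 4 libraries and lowered means below -1 in each. Over all 10282 genes measured in this way, 15.4% were raised and 8.74% were lowered. The rule fixed which cells were compared, so these counts are a description and no test was made.

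Beyond the 7 markers, genes of the division cycle stood higher in cycling cells than in other kept cells. The 7 markers act mostly in mitosis, so the choice of cells favoured genes that rise with them. The order of the lists therefore cannot be read as a trait of all dividing cells. Mitotic genes moved most: 34 of 35 spindle and cytokinesis genes were raised, 32 of 34 centromere, kinetochore and checkpoint genes and 29 of 30 condensin, cohesin and chromatin genes, with median log2 ratios of 3.48, 2.59 and 2.56, beside 0.23 over all genes. Tubb5, the beta-tubulin of dividing cells, stood at 895, 917, 997 and 875 CPM in cycling cells of ileum 1, ileum 2, jejunum 1 and jejunum 2 and at 29.3, 25.6, 22.4 and 21.0 CPM in other kept cells. Cenpe, a motor that carries chromosomes along the spindle, stood at 216, 230.0, 242 and 193 CPM against 4.48, 4.23, 9.30 and 9.87 CPM. Hmgb2, a chromatin protein of proliferating cells, stood at 903, 1010.1, 1171 and 1104 CPM against 63.5, 51.0, 80.1 and 79.1 CPM. In each of these 3 genes the lowest library of the cycling cells lay far above the highest of the others. Cdc20, which activates the anaphase-promoting complex, stood at 112, 191, 181 and 190.3 CPM against 0.885, 1.05, 1.36 and 1.93 CPM, but the complex itself followed weakly, with 5 of its 18 genes raised and a median of 0.85.

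Replication and growth genes were raised less, an order that the choice of cells by mostly mitotic markers favoured. Of 42 DNA replication genes 29 were raised (median log2 ratio 1.82), of 21 genes of nucleotide synthesis 17 (2.35) and of 19 genes of repair and replication stress 18 (2.00). Mcm7, a subunit of the replicative helicase, stood at 127, 149, 184 and 156 CPM in cycling cells and at 20.6, 20.3, 17.4 and 17.5 CPM in other kept cells of ileum 1, ileum 2, jejunum 1 and jejunum 2. Pcna, the sliding clamp of the polymerases, stood at 130.3, 146, 188 and 191 CPM against 83.5, 78.7, 70.8 and 93.4 CPM, a narrower gap than for Mcm7. Impdh2, the rate-limiting enzyme of guanine nucleotide synthesis, stood at 459.8, 465, 439.9 and 469 CPM against 31.7, 27.9, 26.4 and 29.9 CPM. At least 8 of the 44 replication genes were detected in 63.8% of cycling cells and in 14.3% of other kept cells, or 4197 cells. Of these 4197 cells, 356 met the rule on crypt genes. Among other kept cells the share was 24.5% in ileum 1 and 5.36% in jejunum 1, in the order of their depths. Of 25 ribosome biogenesis genes 22 were raised (median 2.15), among them Ncl, nucleolin, at 778, 796, 801 and 805 CPM against 156, 160.1, 127 and 121 CPM.

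Cell cycle regulators split by kind. Of 18 cyclins, CDKs and activators 12 were raised. Ccnd2, the D-type cyclin of G1, stood at 1429.7, 1732, 1292 and 1438 CPM in cycling cells of ileum 1, ileum 2, jejunum 1 and jejunum 2, and at 42.3, 42.6, 47.8 and 60.3 CPM in other kept cells. Ccna2, the cyclin of S phase and G2, stood at 279.6, 269.7, 288 and 297 CPM against 1.70, 1.47, 2.28 and 3.33 CPM. Among 6 CDK inhibitors 1 was raised and 1 was lowered. The lowered gene was Cdkn1c (p57), at 202, 95.4, 69.5 and 55.4 CPM against 736, 689, 707 and 611 CPM, and the raised gene was Cdkn2c (p18), at 12.5, 17.5, 12.8 and 9.11 CPM against 0.330, 0.311, 0.195 and 0.322 CPM. Myc, which drives growth, stood at 109.8, 97.4, 148 and 142 CPM against 15.1, 8.89, 7.29 and 9.13 CPM. Of 16 cell cycle transcription factors 6 were raised, and among 8 Notch and secretory fate genes 4 were, with Sox4 at 663, 639.9, 563 and 452 CPM against 30.6, 24.5, 25.8 and 26.5 CPM.

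Genes of mature enterocytes were low. Of 26 absorptive enterocyte genes 20 were lowered and 0 raised (median log2 ratio -2.33), and of 28 genes of neonatal endocytosis and lysosome function 24 were lowered and 0 raised (-2.04). Apoa4, an apolipoprotein of chylomicrons, stood at 1315, 1145, 2421 and 2709.7 CPM in cycling cells of ileum 1, ileum 2, jejunum 1 and jejunum 2 and at 5833, 6335, 16333 and 18011 CPM in other kept cells. Ctsb, a lysosomal protease, stood at 797, 665, 381 and 467 CPM against 2288, 2503, 1556 and 1492 CPM. The enterocyte list took a median 0.336%, 0.427%, 0.631% and 0.749% of a cycling cell's UMIs in these libraries, beside 2.44%, 3.08%, 6.37% and 6.39% in other kept cells, with the libraries in the same order in both classes. Glycolysis genes differed little between the classes, with 0 of 12 raised and 0 lowered.

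**Figure D2:**
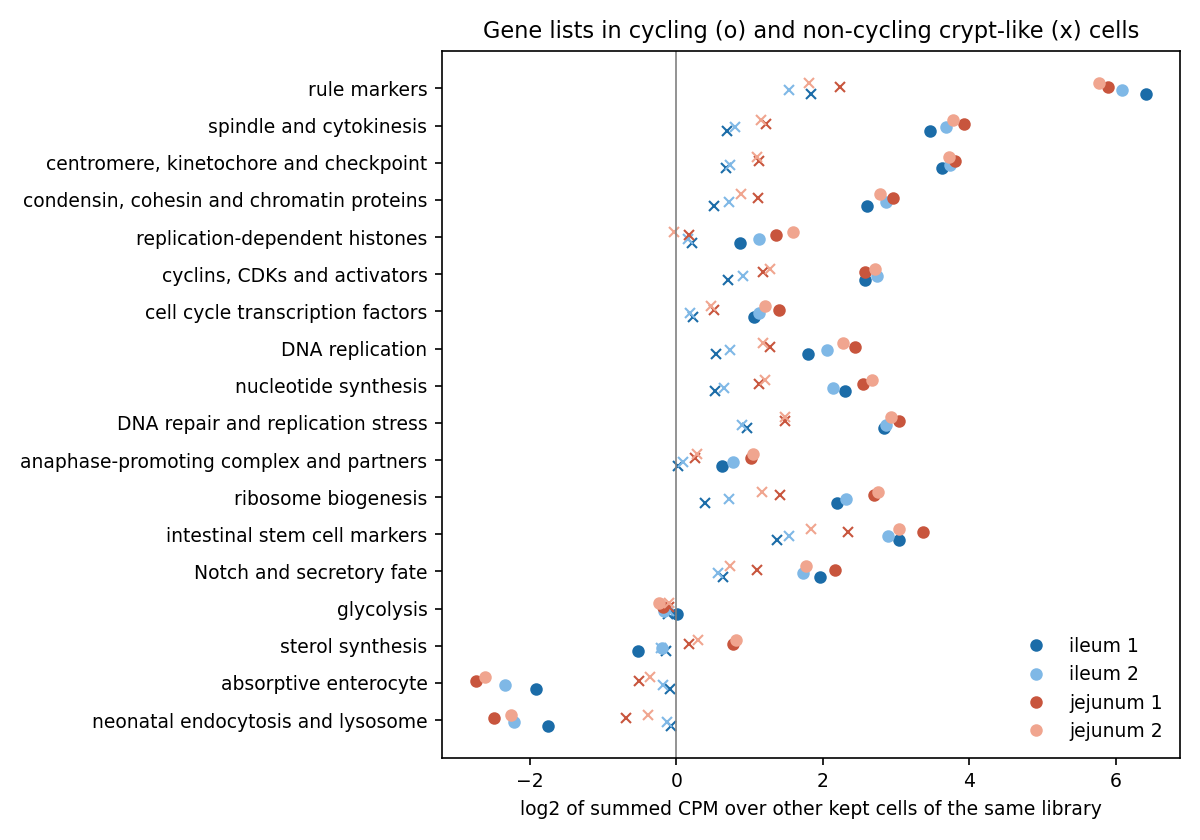
Log2 ratio of the summed CPM of each gene list over that of other kept cells of the same library (x axis), for cycling cells (filled circles) and non-cycling crypt-like cells (crosses), 1 colour per library. The rule markers lie between 5.78 and 6.42 in cycling cells, the absorptive enterocyte list between -2.74 and -1.91, and the sterol synthesis list is below 0 in both ileal libraries and above 0 in both jejunal ones.

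Against 1009 non-cycling crypt-like cells, which met the rule on crypt genes but not that on the 7 markers, fewer genes stood apart: 6.61% of 10251 genes were raised in each library and 6.44% were lowered. The crypt-like cells were less pure, with enterocyte genes at a median 2.02% of UMIs beside 0.537% in cycling cells and 4.07% in other kept cells. Of the mitotic lists, 34 of 35 spindle genes, 32 of 34 centromere genes and 23 of 30 condensin, cohesin and chromatin genes were raised. Their median log2 ratios were 2.71, 2.21 and 1.72. Of the DNA replication genes 15 of 42 were raised, and of the stem cell markers 9 of 23. The 7 markers also set these 2 classes apart, so the rule favoured this order as well. Outside all lists, the 10 genes most evenly raised over other kept cells included the H2A histone genes H2ac24 and H2ac23, Cdca3 and Cdca2, which act in mitosis, the kinetochore and spindle gene Knstrn, the water channel gene Aqp1 and the potassium channel gene Kcnq1. Aqp1 stood at 158, 193, 222 and 205 CPM in cycling cells of ileum 1, ileum 2, jejunum 1 and jejunum 2 against 2.88, 5.02, 4.93 and 5.68 CPM in other kept cells. Kcnq1 stood at 369, 374, 435 and 388 CPM against 13.3, 16.0, 19.3 and 17.8 CPM. Marcks, a membrane-bound actin regulator, Clca3b and Ccdc34 were the others. H2A genes are near-identical copies, and reads could be split between them. Outside the lists, the 10 most evenly lowered genes were G6pc and Pck1 of glucose synthesis, the peptidase gene Ace, the cholesterol uptake gene Npc1l1, the amino acid transporter gene Slc6a19, and Tdrp, Enpp3, Gask1b, Gatm and Csf1r. Pck1 stood at 58.7, 54.7, 101 and 142 CPM against 350.4, 513, 1312 and 1546 CPM. Csf1r, best known as a macrophage receptor, stood at 34.2, 13.9, 13.3 and 11.2 CPM against 202, 176, 183 and 211 CPM.

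The region comparison asked whether dividing cells already differ between the regions. UMIs of the cycling cells were summed per library and fitted with the edgeR quasi-likelihood test, and a gene was called at a Benjamini-Hochberg adjusted p under 0.05. Of 11901 genes tested, 333 were called, or 2.80%: 219 had more UMIs in the ileum (1.84%) and 114 had more in the jejunum (0.958%). All 333 went the same way in both mice, which a call on these same libraries makes likely. With the mouse as a block 772 were called, 474 toward the ileum and 298 toward the jejunum, and the 333 were all among them. In other kept cells the same test called 1419 of 20106 genes, or 7.06%. The count depended on single libraries, falling to 113 without ileum 1 and 147 without jejunum 2 and rising to 664 without jejunum 1.

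Few cell cycle genes passed this test, in which 2.80% of all genes were called. Cells of both regions were chosen by the same 7 markers, so the test had little room to find differences in genes that rise with them. Of the 99 genes of the spindle, centromere and condensin lists, 0 were called by edgeR, 8 had an unadjusted p under 0.05, and DESeq2 called 0 with 4 under 0.05 unadjusted. With the mouse as a block 2 were called, Hjurp and H2az1, both higher in the jejunum. Of 18 cyclins, CDKs and activators, edgeR called 0, with 4 under 0.05 unadjusted, and DESeq2 called 0, with 2. With the block 2 of these were called, both D-type cyclins and both higher in the ileum: Ccnd1, with a log2 fold change of 0.53, and Ccnd3, with 0.61. The genes called with the block alone were named after their values were seen. Among 44 DNA replication genes 1 was called, and it was higher in the jejunum: Wdhd1, a replisome adaptor, stood at 21.7 and 22.2 CPM in the ileal libraries and 45.6 and 36.8 CPM in the jejunal ones (log2 fold change -0.95, SE 0.22, edgeR adjusted p = 0.0474). With the block 4 were called, all higher in the jejunum: Wdhd1, Tipin, Pcna and Mcm4. Rrm2, the regulated subunit of ribonucleotide reductase, which makes the deoxynucleotides, stood at 22.5 and 23.2 CPM in the ileal libraries and 43.8 and 51.2 CPM in the jejunal ones (log2 fold change -1.10, SE 0.20, edgeR adjusted p = 0.0162), and the regions overlapped in neither gene. DESeq2 called 0 of the 44 replication genes, with 5 under 0.05 unadjusted, and 0 of 21 genes of nucleotide synthesis, with 4, and it put Wdhd1 at an adjusted p of 0.197 and Rrm2 at 0.0552. Neither gene was called with cycling cells chosen at 2000 UMIs (edgeR adjusted p = 0.419 and 0.230). That choice left 146, 102, 125 and 135 cycling cells in ileum 1, ileum 2, jejunum 1 and jejunum 2, so its fits also had fewer cells. With 1 library left out, Wdhd1 was called in none of the 4 fits (edgeR adjusted p from 0.0540 to 0.282), and Rrm2 was called without jejunum 1 (0.00141) but not without ileum 1, ileum 2 or jejunum 2 (0.0535 to 0.147). The median log2 fold change of the replication list was -0.36, beside 0.00 over all genes tested, and it was -0.05 with cycling cells chosen at 2000 UMIs. The UMIs of the replication list were also set against those of the 7 markers. Their log2 ratio was -0.12 in ileum 1, 0.08 in ileum 2, 0.24 in jejunum 1 and 0.24 in jejunum 2, with means of -0.02 ± 0.15 (SD, n = 2) and 0.24 ± 0.00093 (SD, n = 2). The libraries of the regions did not overlap, and the difference of -0.26 gave p = 0.333 in the exact two-sided permutation test, the smallest p this design allows. It was -0.11 with cycling cells chosen at 2000 UMIs and -0.16 without ileum 1. The denominator holds the markers by which the cells were chosen, so this ratio cannot decide whether the regions differ in replication.

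Stem cell markers differed in 5 of 24 genes tested, all higher in the jejunum, and in 7 with the mouse as a block. Olfm4 stood at 1119.5 and 982 CPM in the ileal libraries and 2196 and 2096 CPM in the jejunal ones (log2 fold change -1.07, SE 0.13, edgeR adjusted p = 0.00232). Smoc2, a secreted matrix protein of the crypt base, stood at 125 and 105 CPM in the ileal libraries and 202 and 172 CPM in the jejunal ones (log2 fold change -0.74, SE 0.16, edgeR adjusted p = 0.0386). The regions did not overlap for either. Prom1, which encodes CD133, had a log2 fold change of -0.97, the ephrin receptor gene Ephb3 -1.79 and the gastrokine gene Gkn3 -2.81, the last from low levels of 2.01, 1.03, 8.41 and 13.3 CPM in ileum 1, ileum 2, jejunum 1 and jejunum 2. Lgr5 did not pass, at 214 and 205 CPM in the ileal libraries and 193 and 155 CPM in the jejunal ones (log2 fold change 0.23, SE 0.16, edgeR adjusted p = 0.575). Nor did Ascl2, at 59.5 and 54.1 CPM in the ileal libraries and 70.8 and 58.9 CPM in the jejunal ones. With the fewer cycling cells chosen at an equal depth of 2000 UMIs, 1 stem cell marker was called. With 1 library left out the count was 1 without ileum 1, 1 without ileum 2, 2 without jejunum 2 and 4 without jejunum 1.

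The gene with the most different level between regions toward the jejunum was Cym, which encodes chymosin, the milk-clotting protease of the suckling stomach. It stood at 2.41 and 2.58 CPM in the ileal libraries and 198 and 446 CPM in the jejunal ones, and it was detected in 5 of 320, 5 of 264, 109 of 293 and 193 of 323 cycling cells of ileum 1, ileum 2, jejunum 1 and jejunum 2 (log2 fold change -7.04, SE 0.48, edgeR adjusted p = 1.03e-04). Its level in jejunal cycling cells was 815% of that in other kept jejunal cells. Onecut2, a transcription factor gene of the proximal intestine, stood at 4.43 and 4.12 CPM in the ileal libraries and 92.1 and 232 CPM in the jejunal ones (log2 fold change -5.28, SE 0.49, edgeR adjusted p = 7.35e-04), and Gata4, which specifies jejunal identity, at 28.6 and 50.0 CPM in the ileal libraries and 152 and 177 CPM in the jejunal ones (log2 fold change -2.13, SE 0.24, edgeR adjusted p = 0.00208). Prdm16, a transcriptional regulator, had a log2 fold change of -2.31 and Gsdmc4, a gasdermin gene with close copies, -2.17. For these 5 genes jejunal cycling cells stood above other jejunal cells. Against non-cycling crypt-like cells the gap was smaller. There the mean log2 ratio over the 4 libraries of both regions was 1.18 for Gsdmc4, 0.85 for Cym and 0.60 for Onecut2. It was 0.08 for Gata4 and -0.05 for Prdm16. The other named jejunal genes stood lower in jejunal cycling cells than in other jejunal cells. Fabp1, a fatty acid carrier, stood at 24.1 and 121 CPM in the ileal libraries and 641 and 844 CPM in the jejunal ones (log2 fold change -3.42, SE 0.51, edgeR adjusted p = 0.00667), with 12.1% of the level of other jejunal cells. Apoc2, the cofactor of lipoprotein lipase, stood at 151 and 122 CPM in the ileal libraries and 544 and 773 CPM in the jejunal ones (log2 fold change -2.31, SE 0.20, edgeR adjusted p = 4.86e-04). Paqr9, Mfsd2a, Cda and Serpina1e had log2 fold changes of -3.54, -3.32, -2.95 and -2.72.

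Toward the ileum the largest fold change was that of Fabp6, the ileal bile acid carrier, at 86.9 and 57.7 CPM in the ileal libraries and 0 and 0 CPM in the jejunal ones. All 328 of its UMIs in cycling cells were ileal, so the pooled level was at least 126-fold higher, taking 3 counts over the jejunal libraries as the floor. These UMIs were concentrated: the 5 cells with the most held 54.6% of those of ileum 1. Guca2a, which encodes guanylin, stood at 614 and 327 CPM in the ileal libraries and 24.3 and 11.2 CPM in the jejunal ones (log2 fold change 4.71, SE 0.36, edgeR adjusted p = 2.07e-04), and was detected in 70.9% and 75.8% of ileal cycling cells. Scd2, a fatty acid desaturase, stood at 128 and 36.6 CPM in the ileal libraries and 0 and 2.10 CPM in the jejunal ones (log2 fold change 6.05, SE 0.77, edgeR adjusted p = 0.00303). Sprr2a2, a barrier protein gene with close copies, had a log2 fold change of 3.21, the tight junction gene Cldn8 3.71, the antimicrobial lectin gene Reg3b 3.69 and the short-chain fatty acid carrier Slc5a8 4.29. Meg3, Afp and Cysltr1 had 5.00, 4.92 and 3.32. Each of these 10 ileal genes was lower in ileal cycling cells than in other ileal cells, at 15.1% to 71.6% of their level, except that Reg3b was higher in cycling cells of ileum 2. Among regional transcription factors, Hoxb6 was higher in the ileum, at 29.8 and 9.28 CPM in the ileal libraries and 3.10 and 2.80 CPM in the jejunal ones (log2 fold change 2.69, SE 0.56, edgeR adjusted p = 0.0294), while Cdx2 stood at 331 and 389 CPM in the ileal libraries and 339 and 358 CPM in the jejunal ones (log2 fold change 0.00, SE 0.16, edgeR adjusted p = 0.996).

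**Figure D3:**
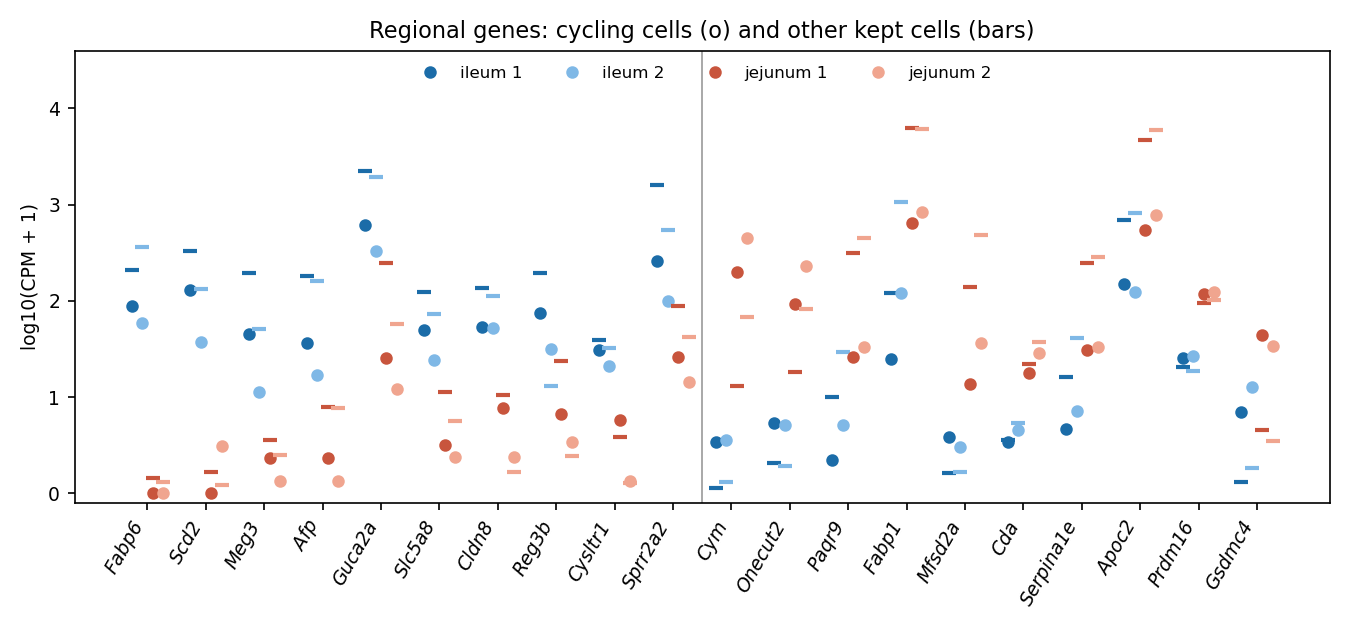
Levels of the 10 genes highest in the ileum (left) and the 10 highest in the jejunum (right) among those called, as log10 of CPM plus 1 (y axis), in cycling cells (circles) and other kept cells (horizontal bars) of each library. Cym, Onecut2, Prdm16 and Gsdmc4 are higher in cycling than in other cells of the jejunum, while the 10 ileal genes are lower in cycling than in other ileal cells, except Reg3b in ileum 2.

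Called genes were also placed against their level in other kept cells. Of the 114 genes higher in the jejunum, 53 (46.5%) stood in jejunal cycling cells at or above their level in other jejunal cells, and 27 (23.7%) stood under 25% of it. Of the 219 genes higher in the ileum, 31 (14.2%) stood at or above the level of other ileal cells and 80 (36.5%) stood under 25% of it. Over all 11901 genes tested, the shares at or above were 64.2% for the jejunum and 60.9% for the ileum, and the shares under 25% were 4.78% and 2.86%. No test was made of these shares.

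Endocytosis and lysosome genes made up the largest block of ileal calls among the lists. Of 28 genes tested 17 were called, all higher in the ileum, and 22 were with the mouse as a block. Lgmn, a lysosomal endopeptidase, stood at 906 and 526 CPM in the ileal libraries and 193 and 101 CPM in the jejunal ones (log2 fold change 2.24, SE 0.30, edgeR adjusted p = 0.00383). Cubn, the scavenger receptor that takes up luminal protein, stood at 80.1 and 50.5 CPM in the ileal libraries and 22.1 and 10.2 CPM in the jejunal ones (log2 fold change 2.02, SE 0.32, edgeR adjusted p = 0.00823), and its adaptor Dab2 at 186 and 104 CPM in the ileal libraries and 42.5 and 32.2 CPM in the jejunal ones (log2 fold change 1.93, SE 0.26, edgeR adjusted p = 0.0039). The ileal levels of these 3 genes were 15.1% to 19.1% of those in other ileal cells. The highest doublet scores, the top 6% of kept cells, were held by 10.6%, 6.44%, 8.19% and 6.19% of cycling cells of ileum 1, ileum 2, jejunum 1 and jejunum 2. Without those cells 5 of 27 list genes were called. When cycling cells were chosen at 2000 UMIs, 1 of 27 was called, and 4 of 28 were called without ileum 1 and 8 without jejunum 2. The part of mixed droplets in these calls was not tested. Over all genes, leaving out the highest doublet scores took ileal calls from 219 to 86 and jejunal calls from 114 to 95.

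**Figure D4:**
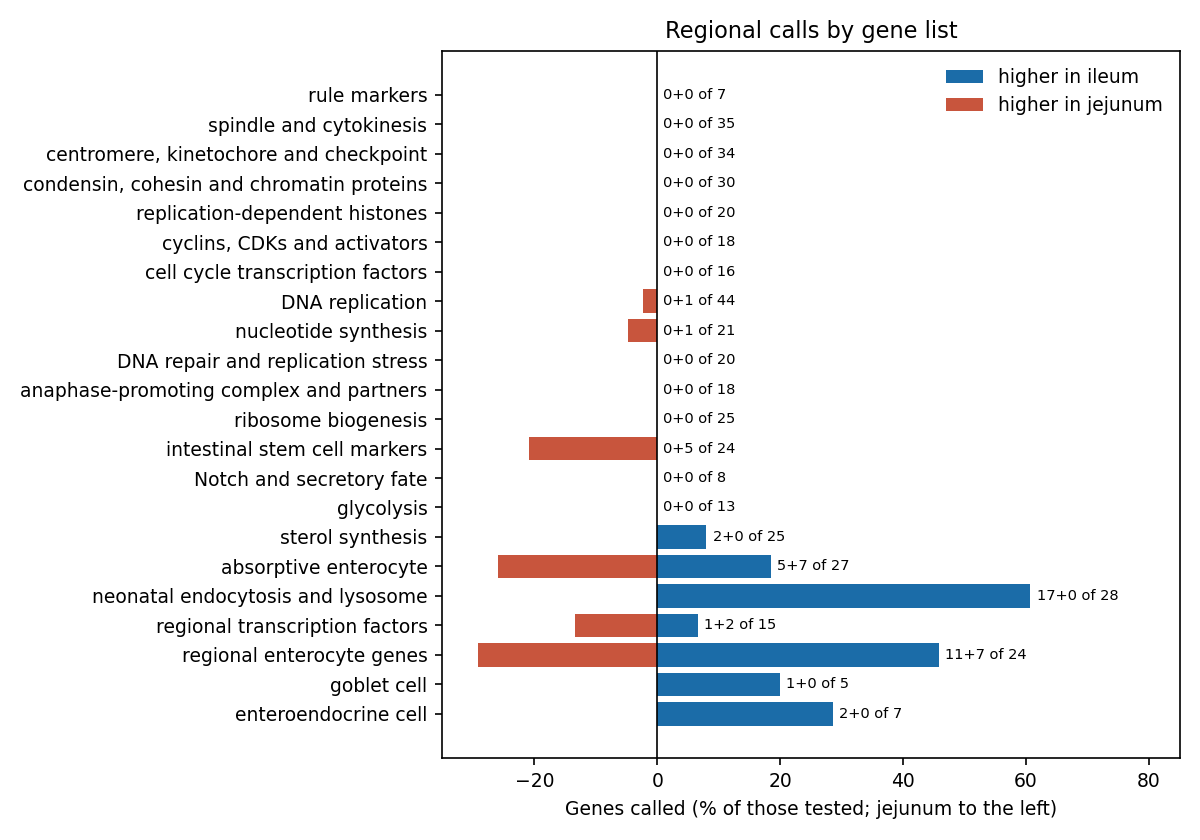
Genes called between regions in cycling cells, as percent of those tested in each list, with ileum to the right and jejunum to the left and the counts (ileum plus jejunum, of those tested) beside each bar. The cell cycle lists hold at most 1 call each, the endocytosis and lysosome list 17 of 28 toward the ileum, and the stem cell list 5 of 24 toward the jejunum.

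A regional difference was compared between cycling and other kept cells through the product of region and class, fitted by edgeR with the library as a block. This interaction was called in 1410 of 19494 genes, or 7.23%. Sterol synthesis and uptake genes were the list with the highest share, 18 of 25, all with a lower ileum-to-jejunum ratio in cycling cells. The count lay between 15 and 19 under each of the alternatives run for this test, including thinned sums, cycling cells chosen at 2000 UMIs and each library left out. Hmgcs1, which makes the precursor of mevalonate, stood at 184 and 210.4 CPM in the ileal libraries and 171 and 133 CPM in the jejunal ones in cycling cells and at 234 and 168 CPM in the ileal libraries and 54.2 and 41.8 CPM in the jejunal ones in other kept cells. Its ileal excess was 0.34 on the log2 scale in cycling cells and 1.98 in the others, and the interaction was -1.63 (SE 0.19, edgeR adjusted p = 1.94e-05). Stard4, a sterol carrier, stood at 228 and 204 CPM in the ileal libraries and 134 and 109 CPM in the jejunal ones in cycling cells and at 306 and 269 CPM in the ileal libraries and 104 and 83.9 CPM in the jejunal ones in the others (interaction -0.74, SE 0.15, edgeR adjusted p = 0.00532). In cycling cells alone 2 of the 25 genes, Stard4 among them, were called higher in the ileum, and 5 were with the block. The summed list stood at log2 ratios of -0.53 and -0.19 over other cells in the ileal libraries and of 0.78 and 0.81 in the jejunal ones.

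The stem cell markers gave an interaction in 11 of 26 genes, 9 of them with a positive sign. For Olfm4 the jejunal excess was 1.07 on the log2 scale in cycling cells and 2.26 in other kept cells, where it stood at 10.5 and 10.7 CPM in the ileal libraries and 46.7 and 49.2 CPM in the jejunal ones (interaction 1.19, SE 0.16, edgeR adjusted p = 1.36e-04). Mfsd2a, a carrier of lysophospholipids, differed between regions by -9.03 in the others and by -3.32 in cycling cells. Among secretory genes, the mucin gene Muc2 was higher in ileal cycling cells, at 22.9 and 13.4 CPM in the ileal libraries and 2.21 and 3.15 CPM in the jejunal ones (log2 fold change 2.68, SE 0.44, edgeR adjusted p = 0.00959), and the granin gene Chgb at 64.0 and 19.6 CPM in the ileal libraries and 9.29 and 1.75 CPM in the jejunal ones (log2 fold change 2.97, SE 0.62, edgeR adjusted p = 0.0305). In other kept cells Chgb stood at 27.7 and 29.4 CPM in the ileal libraries and 47.5 and 60.5 CPM in the jejunal ones, higher in the jejunum, and its interaction was 3.99 (edgeR adjusted p = 8.43e-05). At least 2 goblet cell markers were held by 22.5%, 11.7%, 8.19% and 7.12% of cycling cells of ileum 1, ileum 2, jejunum 1 and jejunum 2. Among other kept cells of these libraries the shares were 33.9%, 25.5%, 7.18% and 8.33%. At least 2 enteroendocrine markers were held by 5.63%, 3.03%, 2.73% and 1.55% of cycling cells and by 7.98%, 6.04%, 3.49% and 3.59% of the others. In both classes the ileal shares were thus the higher ones. Depth was not equalised for these shares. The part of cells with such markers in the regional differences was not tested.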

How the data were processed

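Single-cell libraries (PIPseq, 3′ end) of jejunum and ileum from 2 mice were analysed. The deposited values are raw UMI counts per gene and cell, which the authors produced with PIPseeker on build GRCm39 per the labels and the study's methods; the annotation release is not given in the sources used here. Only the 32227 features as deposited were used, with no normalization by the authors.

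Cells with 1000 to 6000 genes and under 20% mitochondrial UMIs were kept, and the marker rule was applied. The members and gene lists (600 genes in 32 lists, 599 of them among the features) were chosen with earlier results of these data known. Scrublet (scanpy 1.11.5) called under 0.5% of cells as doublets and so did not work; no cell was removed, and leaving out the top 6% of scores was an alternative. UMIs were summed per library and class (1939495 to 2853489 UMIs for cycling cells) and tested with edgeR 4.0.16 (filterByExpr, TMM, quasi-likelihood, Benjamini-Hochberg). DESeq2 1.42.0 was an alternative. Both regions came from the same 2 mice. The main fit treated the 4 libraries as independent, so its p-values measure the spread between libraries of a region. In fits with a mouse or library block, p-values measure the spread left after the block. Interaction fits used the library as a block. Tested on simulated data of 11655 genes, the cycling cell fit called 77% of genes changed 2-fold and 97% of genes changed 4-fold, and 0.166% of unchanged genes. The changed genes were drawn only from those with higher counts, so the detection rates do not cover genes with few UMIs. No effect shared by the libraries of a mouse was simulated. Same-numbered libraries come from 1 mouse per the study's design, and their deviations from the region means correlated at 0.244. Shares carry exact binomial intervals.

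Named genes were the 7 markers, the 10 called genes with the largest fold change in each direction (20 CPM or more in the higher region, same direction in both mice, no gene-model name), the 3 genes with the highest level and the called genes of each list, and the 10 most evenly raised and 10 most evenly lowered genes outside the lists. Alternatives covered normalization, count filter, thinned sums, depth of the rule, mouse block, each library left out, mitochondrial and gene limits, stricter (5 markers, 10 UMIs) and looser (2 markers, 3 UMIs) rules, doublet scores and immune markers. Promoter letters were searched in 200 bases. Results of a few genes called or named by this rule are not reported here.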

Additional observations from a re-analysis of the deposited data

Results flagged for a closer look

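The regional log2 fold change (ileum over jejunum) differed between cycling and other kept cells, in the edgeR interaction test with a Benjamini-Hochberg adjusted p under 0.05, for the 42 genes given below, which were named in the text or called in a list. The 7 markers that chose the cells are left out, but genes that rise with them, such as Cenpe and Ccna2, are kept. Those markers also split the classes, and the part of that split in the differences of such genes was not tested. The values below are the fold change in cycling cells minus that in other kept cells, on the log2 scale. Among stem cell markers the differences were Olfm4 1.19, Ephb3 2.89, Smoc2 0.97, Lgr5 1.10, Slc12a2 1.00 and Axin2 -0.95. Among genes of the cell cycle and growth they were Cenpe 1.22, Ccna2 0.76, Ccnd2 0.60, Cdca3 0.75, Knstrn 0.75, Cdkn1c 1.14 and Myc -0.96. Among enterocyte enzymes and transporters they were Lct 0.85, Mep1b 0.87, Enpep 0.85, Cdhr5 0.71, Slc51a 1.44, Cd36 2.87 and Mfsd2a 5.70. Among endocytosis and lysosome genes they were Lgmn 0.96, Dab2 0.93, Neu1 1.25, Cubn 1.13, Mamdc4 0.90 and Ctsa 0.78. Regional genes of other kinds gave Sprr2a2 -0.80, Gata4 -0.62, Cpne8 -1.13, Fam13a 4.51 and Fcgrt 0.82. Genes lowered in cycling cells gave Ace 0.96, Pck1 0.73, Gatm 1.32, Tdrp 0.84 and Csf1r 1.12, and Gzma, from few cells, gave 4.38. Sterol genes gave Stard4 -0.74 and Hmgcs1 -1.63, and secretory genes gave Muc2 2.46, Chga 3.82 and Chgb 3.99. When cycling cells were chosen at 2000 UMIs, 785 interactions were called in place of 1410, and 555 of the 1410 were among them.

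The share of cycling cells was 1.12 percentage points higher in the ileum in mouse 1, and in mouse 2 the ileum-minus-jejunum difference was -2.54 percentage points. This difference between the mice was not tested.

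Among the 3140 called cells with more than 6000 detected genes and under 20% mitochondrial UMIs, which were used only in the alternative with no upper gene limit, 88 met the marker rule: 25, 8, 12 and 43 in ileum 1, ileum 2, jejunum 1 and jejunum 2. Their share was 17.1% in jejunum 2 and 1.53% in ileum 1.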

How the results depend on the processing

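The 333 regional calls became 760 without the count filter, 772 with the mouse as a replicate block, 218 with the stricter rule and 597 with the looser rule. They became 181 without the highest doublet scores and 84 with cycling cells chosen at 2000 UMIs. The choice at 2000 UMIs left 146, 102, 125 and 135 cycling cells in ileum 1, ileum 2, jejunum 1 and jejunum 2. Depth of the choice and number of cells cannot be told apart there. DESeq2 called 249. Leaving out 1 library gave 113 (ileum 1) to 664 (jejunum 1), where the lone sample of a region is assumed to vary like the other region. Of the 20 genes named for the largest regional differences, 14 stayed called with cycling cells chosen at 2000 UMIs and 17 to 20 under the other alternatives. The 1410 interaction calls became 766 with thinned sums, 2298 with no upper gene limit, 785 with cycling cells chosen at 2000 UMIs and 874 (without jejunum 2) to 1954 (without ileum 2) with 1 library left out. With 1 library left out, the regional difference in the share of cycling cells ran from -1.90 (without jejunum 1) to 0.485 percentage points (without jejunum 2), and at 2000 UMIs from -0.838 to 0.112, with a reversed sign also without ileum 2, at 0.0192. With a mitochondrial share under 10% it was -2.11, and -0.884 at 2000 UMIs. The ratio of replication to marker UMIs kept its sign under each alternative run, from -0.37 to -0.11, but its denominator holds the rule's own markers. Of the 333 called genes, 295 were tested with cycling cells chosen at 2000 UMIs and 283 of these kept their direction. Over 166 named genes and all their alternatives, 1 called gene turned its direction: Cdhr5, at -0.13 with cycling cells chosen at 2000 UMIs. The causes were not tested. With the mouse as a block, the 333 calls stayed called and no sign turned. List medians over other kept cells changed sign in 1 of 26 lists. With 2 mice, a test on single values cannot reach p under 0.333, and genes with few UMIs limit the counts.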
